A study of Arabidopsis thaliana with 18 samples.

Results

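A set of 80 Arabidopsis thaliana genes is described here whose transcripts were more abundant in nitrogen-starved wild-type seedlings than in untreated ones and less abundant again after nitrate was given back. Members were chosen from the 9 wild-type libraries alone, out of 33602 gene models. Reads of each library were expressed as counts in 1000000 counted reads (CPM), and the mean of the 3 libraries of a condition plus 0.5 was used. A gene was kept when its highest wild-type mean was at least 5 CPM, its starved level at least 2 times its untreated level, and its level after nitrate at most 0.5 times its starved level. The mutant libraries took no part in the choice, so both responses were tested in them.

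Nitrogen starvation in plants turns on genes for uptake of scarce nitrogen compounds, for breakdown of proteins and nucleotides and for anthocyanin pigments, and nitrate that returns acts as a nutrient and as a signal within minutes. The signal runs through the NIN-like proteins (NLP), transcription factors of the RWP-RK family, which switch on nitrate transport and assimilation genes. The repressed side of this response includes the ammonium transporters, whose transcripts are high under starvation and low soon after nitrate. Whether nitrate represses the members was not tested.

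The series measured poly(A) RNA of whole seedlings grown in liquid medium, with 3 libraries in each of 6 groups, and addresses the primary nitrate response. The mutant was nlp2-2, a knock-out line with a T-DNA insertion in NLP2 (AT4G35270), and its reference was wild type Col-4, called Col4 here. In both genotypes "ctrl" marks untreated seedlings of 10 days, "T0" seedlings after 3 days without nitrogen (13 days old), and "T30" starved seedlings given 3 mM nitrate for a time labelled 30, whose unit the labels leave out. All mutant plants carried the same single allele. Starvation and age change together between ctrl and T0, and T30 has no starved group kept without nitrate beside it, so nitrate cannot be told apart from handling or elapsed time. The protocol gives these ages, whereas the planting and harvest dates given for 13 of the 18 libraries, ctrl included, lie 12 days apart.

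Between 14684639 and 25545031 reads were counted per library, and no pair of replicates agreed within sampling noise. Of NLP2 itself, which is not a member, nlp2 libraries had 3.3, 9.39 and 7.92 CPM in ctrl, 9.77, 16.6 and 12.5 in T0, and 8.34, 17.9 and 13.8 in T30. Col4 libraries had 22.2, 27.3 and 22.2 CPM in ctrl, 58.9, 66.4 and 66.2 in T0, and 37.7, 48.4 and 49.4 in T30, so the genotypes did not overlap in any condition. Green tissue markers such as RBCS1A moved strongly with the conditions: the summed level of all 13 markers was 36278 to 46016 CPM in nlp2 ctrl, 19473 to 23515 in nlp2 T0 and 15481 to 17348 in nlp2 T30. The 14 root markers summed to 316 to 393, 429 to 519 and 399 to 435 CPM in the same groups, and the 8 seed storage markers to at most 7.27 CPM in any library. Where a level differs between whole seedlings, fewer cells of a type and less RNA per cell cannot be told apart, and the part of these marker shifts in the members' changes was not tested.

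In the wild type that chose them, the members' T0 over ctrl ratio ran from 2.01 to 34.1 with a median of 2.67. Their T30 over T0 ratio ran from 0.169 to 0.499, with a median of 0.411. Nearest to the first limit inside it were AT1G61050 at 2.01, AMT1;1 at 2.04 and RGF9 at 2.06, and just outside lay NYE1 and AT4G24780 at 1.99 and BEL10 at 1.98. At the second limit AT4G18205 (0.499), AT3G32030 (0.498) and NLP5 (0.496) were just inside, and AT5G38020 (0.504), AT1G15125 (0.505) and LSU4 (0.505) just outside. All 80 members passed the filter on low counts.

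Taken as a sum, the members made up 1524, 1434 and 1813 CPM in the nlp2 ctrl libraries, 5287, 4899 and 5050 in nlp2 T0, and 1904, 1955 and 1972 in nlp2 T30. The Col4 libraries had 1638, 1421 and 1774 CPM in ctrl, 5012, 4671 and 4944 in T0, and 1753, 1755 and 1849 in T30. Every nlp2 T0 library was thus above every nlp2 ctrl and T30 library, while in Col4 the rule itself set this order. One protease gene, GAMMA-VPE, alone held 1185 to 1526 CPM of the nlp2 T0 sums, and without it the nlp2 sums were 1151 to 1353 CPM in ctrl, 3685 to 3761 in T0 and 1403 to 1484 in T30.

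**Figure D1:**
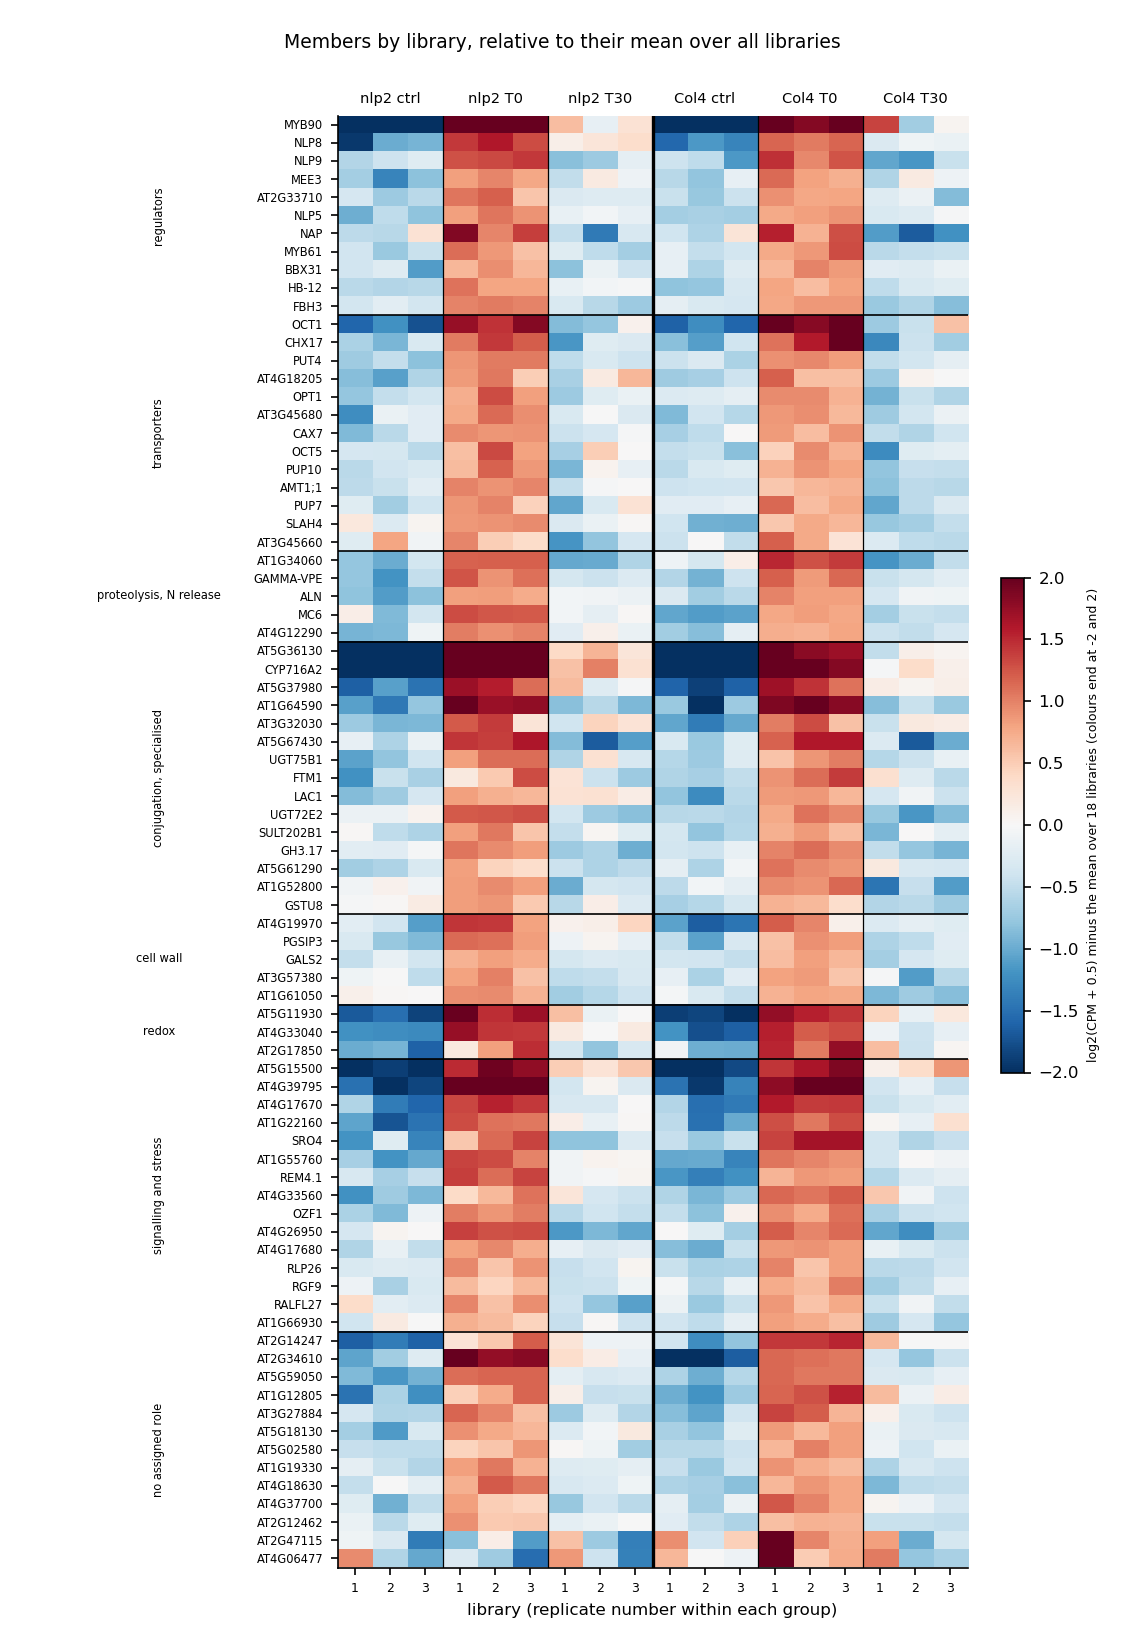
Rows are the 80 members, grouped by role, and columns the 18 libraries, nlp2 left of Col4. Colour is log2(CPM + 0.5) minus the row's mean, and nearly all rows are red in the T0 libraries of both genotypes and blue or pale in ctrl and T30, apart from AT2G47115 and AT4G06477 at the bottom.

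Nearly the whole set was higher in starved nlp2 seedlings than in untreated ones and lower again after nitrate, in libraries that had no part in the choice. Of the 80 members, 77 were higher in nlp2 T0 than in nlp2 ctrl and 0 were lower (edgeR quasi-likelihood test, called at an adjusted p below 0.05), against 14.5% higher and 15.7% lower of all 21347 genes tested. In nlp2 T30, 74 members were lower than in nlp2 T0 and 0 were higher, against 9.23% lower and 9.36% higher of all genes. Both calls were made for 73 members, against 3.14% of all genes. The median log2 fold change of the members was 1.38 for T0 over ctrl and -1.19 for T30 over T0, where the median of all genes was 0.02 and -0.01. The 2 contrasts share the nlp2 T0 libraries. Same-numbered Col4 and nlp2 libraries also shared deviations from their group means across genes. These correlated at 0.554, 0.438 and 0.41 in ctrl, 0.343, 0.316 and 0.267 in T0, and 0.487, 0.438 and 0.201 in T30. The nlp2 libraries, though not used in the choice, are thus not fully independent of those that were. How far this carries into the members' calls was not tested.

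The separation was also visible without a model, in CPM on file totals. Such CPM puts T0 relatively higher than library sizes scaled by the trimmed mean of M-values (TMM) do. Mean TMM factors were 1.09 in nlp2 T0, 0.948 in nlp2 ctrl and 1.02 in nlp2 T30. In 77 members all nlp2 T0 libraries lay above all nlp2 ctrl libraries (35.5% of all genes), and in 75 all nlp2 T30 libraries lay below all nlp2 T0 libraries (25.2% of all genes). The labels tie nlp2 libraries of 1 number to 1 planting date, and within these dates 77 members were higher in T0 than ctrl in all 3 pairs and 75 were lower in T30 than T0 in all 3. Genes without overlap also meet this pair criterion, so at least 35.5% and 25.2% of all genes did. By size, 68 members reached a T0 over ctrl ratio of 2 in the nlp2 means, 62 a T30 over T0 ratio of 0.5 or less, and 56 both. The share of all genes reaching these ratios in nlp2 was not counted.

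Most genes that were higher in Col4 T0 than ctrl did not come down in this way. In Col4, 801 genes passed the level and rise limits, of which 651 had a T30 over T0 ratio between 0.5 and 2 and 70 had one of 2 or more. Of the 651, 594 (91.2%) were higher in nlp2 T0 than nlp2 ctrl but 143 (22.0%) were lower in nlp2 T30 than T0, with a median log2 fold change of -0.22 for T30 over T0. After nitrate 543 of them (83.4%) were still above nlp2 ctrl, with a median of 0.97, whereas the members' median for T30 over ctrl was 0.18. These figures set 2 wild-type choices side by side in nlp2, and no test of their difference was made.

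**Figure D2:**
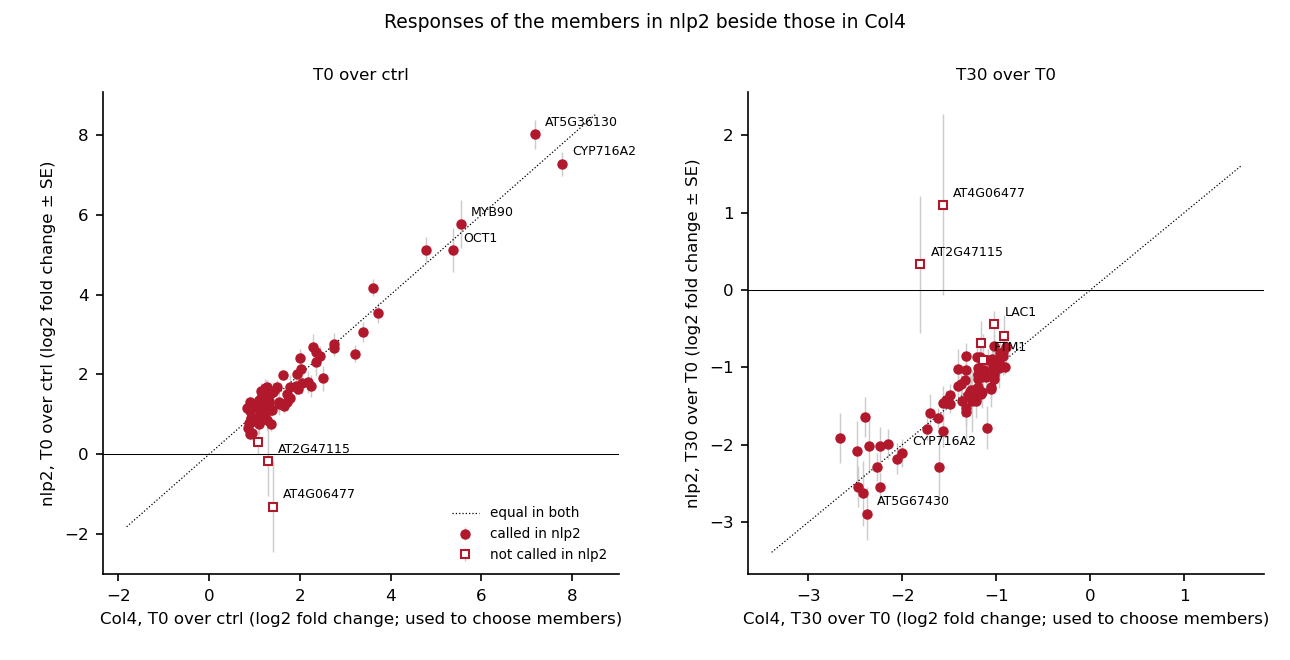
Each point is 1 member. The vertical axes give its log2 fold change (± SE) in nlp2 and the horizontal axes that in Col4, which chose the members, for T0 over ctrl (left) and T30 over T0 (right). Filled points were called in nlp2. Most points lie near the dotted line of equal values, and AT4G06477 and AT2G47115 lie far from it.

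Regulators formed a group of 11, and all 11 were higher in nlp2 T0 than ctrl and lower in nlp2 T30 than T0 (median log2 fold changes 1.52 and -1.36). They include 3 of the 9 NLP genes, the senescence regulator NAP and the anthocyanin regulator MYB90. The region from 250 bases before to 50 bases after the annotated start is shown for 4 regulators, chosen after their motifs were seen. Of the 11 regulators, 5 (MYB61, MEE3, AT2G33710, NLP9 and HB-12) hold none of the motifs searched. It is read from RefSeq TAIR10.1, in the direction of the gene, at chr1:28639203-28639502 on the forward strand for NLP5, chr2:18061466-18061765 (forward) for NLP8, chr1:26121830-26122129 (forward) for NAP and chr1:24763691-24763990 (forward) for MYB90. Capitals mark 5 motifs searched on either strand. The G-box is CACGTG, a site of bZIP and bHLH factors. The evening element is AAATATCT, known from genes under the circadian clock. The GATA motif is GATAAG, a site of GATA zinc finger factors. The palindrome GAATATTC and the shorter GAATC are bound by HRS1 and its relatives.
NLP5: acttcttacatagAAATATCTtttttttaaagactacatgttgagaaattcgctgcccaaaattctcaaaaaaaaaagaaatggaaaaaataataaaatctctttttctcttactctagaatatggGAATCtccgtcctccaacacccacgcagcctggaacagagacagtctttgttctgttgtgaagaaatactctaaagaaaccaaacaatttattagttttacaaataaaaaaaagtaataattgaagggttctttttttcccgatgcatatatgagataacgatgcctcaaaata
NLP8: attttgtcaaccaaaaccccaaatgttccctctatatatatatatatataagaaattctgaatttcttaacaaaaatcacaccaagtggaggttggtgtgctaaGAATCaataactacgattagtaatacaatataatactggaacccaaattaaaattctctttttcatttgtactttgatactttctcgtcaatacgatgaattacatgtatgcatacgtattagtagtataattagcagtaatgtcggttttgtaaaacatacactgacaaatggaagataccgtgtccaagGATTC
NAP: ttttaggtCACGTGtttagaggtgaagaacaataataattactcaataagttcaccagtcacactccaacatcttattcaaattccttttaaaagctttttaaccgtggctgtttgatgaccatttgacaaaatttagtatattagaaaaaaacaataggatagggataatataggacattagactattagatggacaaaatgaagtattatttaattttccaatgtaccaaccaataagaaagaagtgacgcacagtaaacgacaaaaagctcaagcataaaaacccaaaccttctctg
MYB90: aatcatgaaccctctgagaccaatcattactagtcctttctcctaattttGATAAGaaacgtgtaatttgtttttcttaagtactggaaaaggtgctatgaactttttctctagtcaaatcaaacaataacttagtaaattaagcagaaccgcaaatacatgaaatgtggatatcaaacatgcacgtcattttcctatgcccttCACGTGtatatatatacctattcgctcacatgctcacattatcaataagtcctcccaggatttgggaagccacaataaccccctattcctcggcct
NLP5 holds the evening element and 1 GAATC, NLP8 holds 2 GAATC, NAP 1 G-box, and MYB90 1 G-box and 1 GATA motif.

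NLP5 had 17.1, 23.8 and 19.4 CPM in the nlp2 ctrl libraries, 60.7, 72.5 and 64.4 in nlp2 T0, and 30.7, 33.0 and 30.4 in nlp2 T30. All 3 groups were separate, with T30 between the others. Its log2 fold change was 1.52 ± 0.09 (SE) for T0 over ctrl (edgeR adjusted p = 1.55e-09) and -0.99 ± 0.09 for T30 over T0 (adjusted p = 3.19e-07). NLP8, known for its part in nitrate-promoted seed germination, had 3.93, 8.05 and 8.37 CPM in nlp2 ctrl, 44.6, 50.7 and 41.5 in T0, and 17.8, 19.4 and 21.0 in T30. It rose by 2.55 ± 0.17 (adjusted p = 4.24e-09), fell by 1.15 ± 0.16 (log2 fold change -1.15, adjusted p = 3e-05), and stayed 1.4 above ctrl. NLP9 had 2.28, 2.61 and 3.02 CPM in nlp2 ctrl, 9.55, 9.91 and 10.6 in T0, and 1.83, 2.02 and 3.16 in T30, so that T30 and ctrl overlapped. Its log2 fold changes were 1.72 ± 0.24 (adjusted p = 2.73e-05) and -2.02 ± 0.25 (adjusted p = 9.59e-06). In Col4, whose values chose the members, NLP5 had mean levels of 21.3, 60.9 and 29.9 CPM in ctrl, T0 and T30.

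The rest of the NLP family behaved in several ways in nlp2. Of the 9 genes, 6 were higher in T0 than ctrl and 0 lower, against 14.5% and 15.7% of all genes tested. In T30, 4 were lower and 3 higher than in T0, against 9.23% and 9.36%. NLP4 had 25.7, 30.5 and 27.0 CPM in nlp2 ctrl, 72.8, 83.5 and 74.3 in T0, and 58.8, 37.3 and 38.2 in T30. Its T30 libraries spread widely, its log2 fold change for T30 over T0 was -0.69 ± 0.20 (edgeR adjusted p = 0.0196), and it missed the wild-type fall limit. NLP3 went the other way after nitrate, by 1.81 ± 0.13 (adjusted p = 1.2e-08), with 23.4, 21.9 and 25.4 CPM in nlp2 T0 and 73.6, 75.7 and 85.9 in nlp2 T30. NLP7, the best-studied activator of nitrate responses, was 0.07 ± 0.09 for T0 over ctrl in nlp2 (adjusted p = 0.613).

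MYB90 activates anthocyanin synthesis and had the largest fitted rise of the regulators in nlp2. It had 0.291, 1.0 and 0.531 CPM in nlp2 ctrl, 44.5, 36.4 and 30.6 in T0, and 9.25, 5.18 and 7.21 in T30. No groups overlapped, and T30 stayed above ctrl by 3.48 ± 0.65 on the log2 scale (edgeR adjusted p = 0.000578). The step up was 5.77 ± 0.60 (adjusted p = 4.4e-06) and the step down -2.29 ± 0.44 (adjusted p = 0.00163). In Col4 T30 the libraries were far apart, at 15.7, 3.41 and 6.1 CPM, and replicate 1 was the high one. Its close relative MYB75, not a member, rose by 5.84 ± 0.69 and changed by -1.92 ± 0.45 in nlp2 (adjusted p = 5.39e-06 and 0.00455), while its Col4 value for T30 over T0 was -0.73.

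NAP, a NAC factor that promotes leaf senescence, had 14.1, 13.9 and 25.2 CPM in nlp2 ctrl, 75.5, 40.9 and 54.3 in T0, and 14.7, 7.42 and 16.4 in T30. The T0 libraries lay above all others, and ctrl and T30 overlapped. Its log2 fold changes were 1.48 ± 0.37 (edgeR adjusted p = 0.00734) and -2.08 ± 0.39 (adjusted p = 0.00131). HB-12, a homeodomain-leucine zipper factor induced by water deficit, had 10.2, 9.89 and 10.1 CPM in nlp2 ctrl, 32.7, 26.5 and 26.4 in T0, and 13.6, 14.6 and 14.9 in T30. Its 3 groups were separate, and its steps were 1.31 ± 0.13 and -0.91 ± 0.13 (adjusted p = 6.59e-07 and 4.73e-05). FBH3, a bHLH factor that activates the flowering gene CONSTANS, had replicates close together, with 13.8, 15.5 and 13.8 CPM in nlp2 ctrl, 36.3, 37.4 and 36.2 in T0, and 14.4, 12.1 and 10.7 in T30. The remaining regulators, MYB61, MEE3, BBX31 and AT2G33710, had T0 over ctrl values of 1.33 to 1.67 and T30 over T0 values of -0.93 to -1.46.

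**Figure D3:**
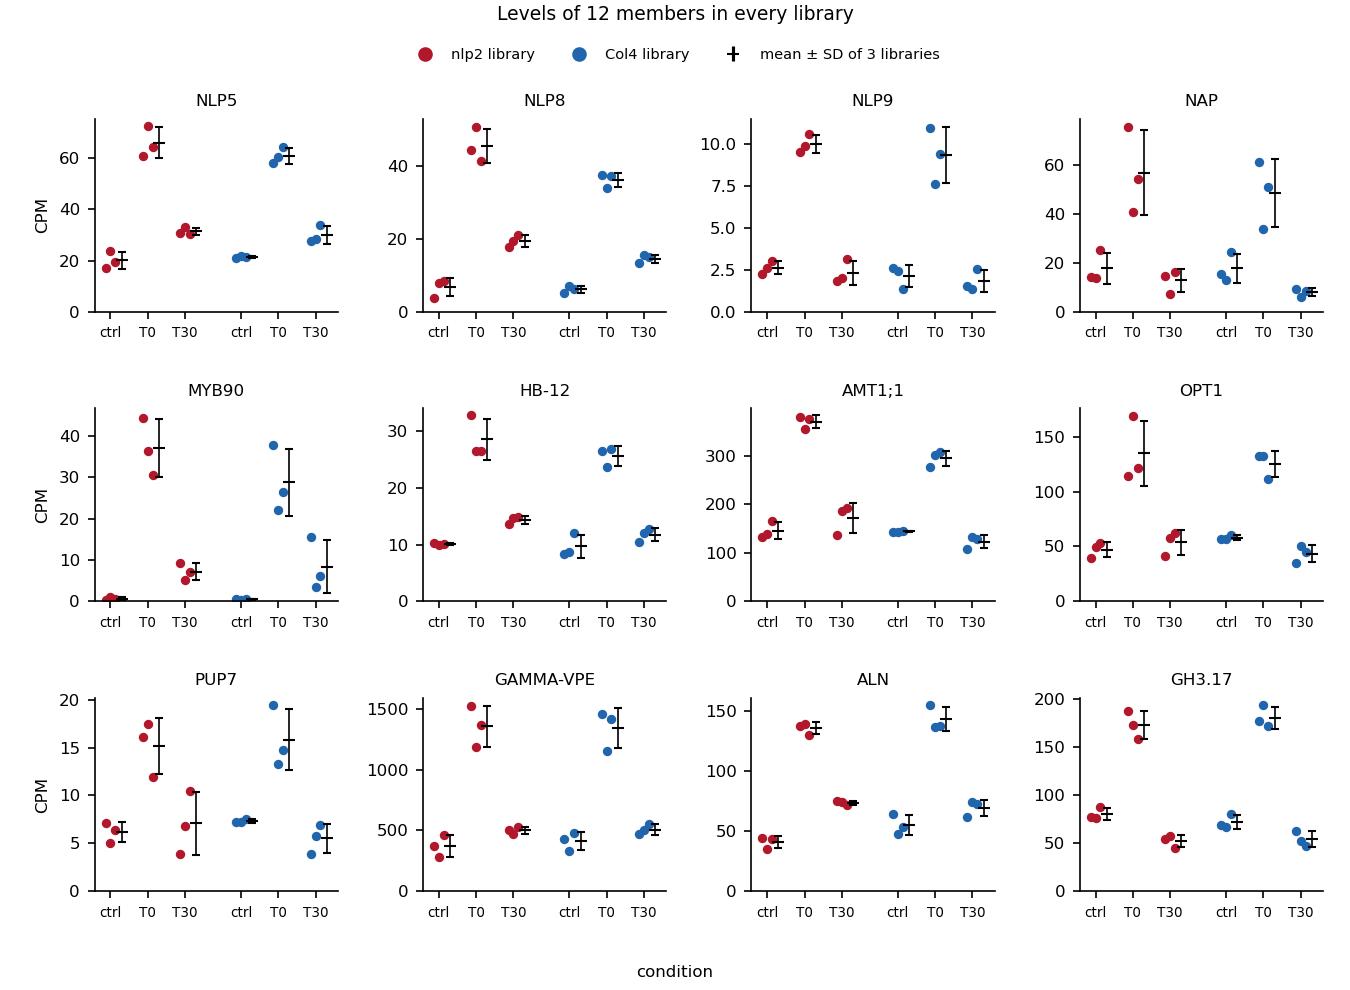
Levels of 12 members in CPM (vertical axes, from 0) by condition, nlp2 left in red and Col4 right in blue. Each dot is 1 library, and the black bar is the mean ± SD of 3. In each panel the T0 libraries of a genotype lie above its ctrl and T30 libraries. In NLP5, NLP8, MYB90, HB-12, ALN and, narrowly, GAMMA-VPE the nlp2 T30 dots lie above the nlp2 ctrl dots.

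Transporters numbered 13, of which 12 were higher in nlp2 T0 than ctrl and 12 lower in nlp2 T30 than T0 (medians 1.27 and -1.11). AMT1;1, a high-affinity ammonium transporter of the root, lay close to the wild-type rise limit. It had 133, 139 and 165 CPM in nlp2 ctrl, 381, 355 and 375 in T0, and 137, 187 and 192 in T30. T0 was apart from both other groups, which overlapped. The log2 fold changes were 1.15 ± 0.11 (edgeR adjusted p = 3.62e-07) and -1.03 ± 0.11 (adjusted p = 1.68e-06). The same stretch around its start, printed as above, is chr4:7857933-7858232 on the forward strand and holds 1 GATA motif.
AMT1;1: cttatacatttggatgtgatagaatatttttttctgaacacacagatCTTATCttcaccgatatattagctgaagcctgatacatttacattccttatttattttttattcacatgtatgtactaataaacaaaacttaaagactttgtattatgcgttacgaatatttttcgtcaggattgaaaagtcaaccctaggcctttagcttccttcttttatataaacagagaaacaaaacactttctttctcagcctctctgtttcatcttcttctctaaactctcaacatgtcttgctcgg
An annotated RNA on the opposite strand, AT4G13505, overlaps AMT1;1 over 1709 bases and had at most 2.69 CPM in any group. With library sizes scaled by the trimmed mean of M-values (TMM), 48 members still met the rule. Transporters that no longer met it were AMT1;1, OPT1, PUP7, AT4G18205, PUP10, CAX7 and AT3G45660. Regulators that no longer met it were NLP5, HB-12, FBH3, MEE3, BBX31 and AT2G33710. ALN and further members of other roles, such as GALS2, GSTU8, RGF9, RALFL27 and LAC1, did not meet it either.

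Related transporter genes that are not members fell too. AMT1;2 and AMT1;3 were higher in nlp2 T0 than ctrl by 0.55 ± 0.09 and 0.93 ± 0.14 and changed by -1.28 ± 0.09 and -1.62 ± 0.14 in T30 over T0 (edgeR adjusted p = 0.000128, 4.11e-05, 1e-08 and 1.06e-07). Neither passed the limit of 2 for the wild-type rise. Over the list of 14 transporters of ammonium, urea and amino acids, 11 were higher and 1 lower in nlp2 T0 than ctrl. Of all genes tested, 14.5% were higher and 15.7% lower. In nlp2 T30, 6 of the 14 were lower and 1 higher than in T0, against 9.23% and 9.36% of all genes. The urea transporter DUR3 and the ammonium transporter AMT1;5 changed by -0.47 ± 0.14 and -0.84 ± 0.21 in T30 over T0, after rises of 2.52 and 7.19. AMT1;5 had 3 reads in all nlp2 ctrl libraries together against 469 in nlp2 T0, a ratio of 190 with a 95% exact interval of 64.5 to 924 that covers counting error only.

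OPT1, a transporter of short peptides, had 39.7, 49.1 and 52.9 CPM in nlp2 ctrl, 114, 169 and 121 in T0, and 41.2, 57.8 and 62.6 in T30. T0 was separate and the other groups overlapped, with steps of 1.31 ± 0.14 and -1.24 ± 0.14 (edgeR adjusted p = 1.65e-06 and 4.27e-06). PUT4, an amino acid permease family member that takes up polyamines, had 10.0, 11.9 and 9.27 CPM in nlp2 ctrl, 31.3, 34.9 and 34.9 in T0, and 11.6, 13.5 and 12.5 in T30. Its steps were 1.5 ± 0.10 and -1.34 ± 0.10 (adjusted p = 4.83e-09 and 1.6e-08). OCT1, an organic cation and carnitine transporter, was scarce before starvation, with 8 reads in nlp2 ctrl against 271 in nlp2 T0. That ratio was 41.1 with a 95% exact interval of 20.6 to 96.2. CHX17, a cation and proton exchanger, had 1.46, 1.11 and 1.96 CPM in nlp2 ctrl, 5.73, 7.59 and 6.54 in T0, and 0.852, 2.06 and 1.99 in T30, and its T30 over T0 value was -1.91 ± 0.32 (adjusted p = 0.000258).

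The transporters include 3 neighbours on chromosome 4. PUP7 (chr4:10071481-10073557), AT4G18205 (chr4:10073711-10075370) and PUP10 (chr4:10075527-10078261) lie in a row on the forward strand, 153 and 156 bases apart. PUP7 and PUP10 are purine permeases, and AT4G18205 is annotated as a nucleotide-sugar transporter family protein. All 3 were called higher in nlp2 T0 than ctrl, and PUP7 and PUP10 were called lower in nlp2 T30 than T0. PUP10 had 6.26, 7.05 and 7.51 CPM in nlp2 ctrl, 14.8, 21.9 and 17.4 in T0, and 4.75, 9.8 and 8.26 in T30. AT4G18205 had 9.76, 8.22 and 11.7 CPM in nlp2 ctrl, 32.9, 38.1 and 25.8 in T0, and 11.4, 20.6 and 28.9 in T30, where replicate 3 reached the T0 range. Its fall missed the threshold (-0.59 ± 0.27, edgeR adjusted p = 0.149, and 0.0229 without that library). The fall of PUP7 (-1.02 ± 0.26, adjusted p = 0.00837) was lost with planting date as a block, fitted to the nlp2 libraries alone (adjusted p = 0.0565). AT3G45660, the transporter not called for the rise, had 2.09, 4.78 and 2.41 CPM in nlp2 ctrl and 5.51, 3.8 and 3.47 in T0, an overlap. Its T0 over ctrl value was 0.31 ± 0.31 (edgeR adjusted p = 0.499), and it was called lower in nlp2 T30 than T0.

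Genes of proteolysis and nitrogen release were 5, and all 5 were called in both nlp2 contrasts (medians 1.52 and -1.29). GAMMA-VPE, a vacuolar processing enzyme that matures and degrades vacuolar proteins, took the most reads of all members. It had 374, 277 and 460 CPM in nlp2 ctrl, 1526, 1185 and 1365 in T0, and 502, 471 and 525 in T30. The T0 libraries were far above both others, and T30 over ctrl was 0.31 ± 0.18 (edgeR adjusted p = 0.193), or 0.34 with planting date as a block (adjusted p = 0.0474). Its steps were 1.68 ± 0.19 and -1.37 ± 0.18 (edgeR adjusted p = 2.21e-06 and 2.88e-05). ALN, the allantoinase of purine breakdown, had 44.4, 35.4 and 43.7 CPM in nlp2 ctrl, 138, 139 and 130 in T0, and 74.8, 74.2 and 71.5 in T30. Its groups were tight and separate, with steps of 1.52 ± 0.12 and -0.80 ± 0.12 (adjusted p = 4.11e-08 and 7.55e-05). MC6, a metacaspase, AT4G12290, a copper amine oxidase, and AT1G34060, a pyridoxal phosphate-dependent transferase, had T0 over ctrl values of 1.42, 1.37 and 1.68. Roles were assigned by hand, and the annotation of AT1G34060 names neither proteolysis nor nitrogen release. The 12 listed genes of autophagy, another route of protein breakdown, were not among the members. Of these, 3 were higher and 1 lower in nlp2 T0 than ctrl, against 14.5% and 15.7% of all genes tested. In nlp2 T30, 2 were lower and 0 higher than in T0, against 9.23% and 9.36%.

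Conjugation and specialised metabolism had 15 members, of which 15 were higher in nlp2 T0 than ctrl and 13 lower in nlp2 T30 than T0 (medians 1.31 and -1.32). The largest fitted rises of the whole set in nlp2 belonged to a pair of neighbouring cytochrome P450 genes on chromosome 5, CYP716A2 (chr5:14212174-14213293) and AT5G36130 (chr5:14209088-14209922), both on the reverse strand and 2251 bases apart. The CYP716A family oxidises triterpenes. CYP716A2 had 0.194, 0.222 and 0.0816 CPM in nlp2 ctrl, 35.0, 29.7 and 23.5 in T0, and 6.09, 8.29 and 4.92 in T30. AT5G36130 had 0.0485, 0.0555 and 0.0408 CPM in nlp2 ctrl, 19.9, 15.3 and 12.8 in T0, and 2.81 to 3.98 in T30. Both were thus nearly silent before starvation, high after it and intermediate after nitrate, without overlap. For CYP716A2, 1550 reads in nlp2 T0 stood against 10 in nlp2 ctrl, a ratio of 188 with a 95% exact interval of 102 to 393. For AT5G36130, 842 reads stood against 3, a ratio of 341 with an interval of 116 to 1656. The falls in T30 over T0 were -2.11 ± 0.18 and -2.18 ± 0.20 (edgeR adjusted p = 1.04e-07 and 2.07e-07).

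GH3.17, which joins the hormone auxin to amino acids, had 77.0, 76.4 and 87.4 CPM in nlp2 ctrl, 188, 173 and 159 in T0, and 53.8, 57.9 and 44.9 in T30. Its T30 libraries lay below all ctrl libraries, and its steps were 0.91 ± 0.13 and -1.65 ± 0.13 (edgeR adjusted p = 3.1e-05 and 4.56e-08). UGT72E2, a glucosyltransferase of lignin precursors, followed the same course, with 184, 185 and 210 CPM in nlp2 ctrl, 469, 475 and 492 in T0, and 156, 121 and 112 in T30. Its steps were 1.11 ± 0.14 and -1.80 ± 0.14 (adjusted p = 8.11e-06 and 3.74e-08). UGT75B1, another glucosyltransferase, had steps of 1.58 ± 0.20 and -1.12 ± 0.20, and the RNA AT1G05562 covers its whole length of 2136 bases on the opposite strand. No source used here says whether counting used strand, and without it reads of the 2 cannot be told apart.

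AT5G67430, annotated as an acyl-CoA N-acyltransferase, had the lowest fitted T30 over T0 value of all members in nlp2. It had 4.27, 3.0 and 4.37 CPM in nlp2 ctrl, 13.9, 13.4 and 15.9 in T0, and 2.44, 1.19 and 1.99 in T30, so that T30 lay below both other groups. Its steps were 1.68 ± 0.31 and -2.89 ± 0.34 (edgeR adjusted p = 0.000414 and 7.82e-06). The gene next to it, LBD37, whose LOB domain protein represses nitrogen-regulated genes, moved in the opposite direction at both steps, by -1.46 ± 0.13 and 3.36 ± 0.14 (adjusted p = 1.34e-07 and 2.7e-12). LBD37 had 69.4, 57.7 and 74.6 CPM in nlp2 ctrl, 32.3, 25.8 and 25.8 in T0, and 267, 255 and 292 in T30. In this role group LAC1, a laccase, and FTM1, a stearoyl-ACP desaturase family member, were not called for the fall (-0.44 ± 0.17 and -0.90 ± 0.33, adjusted p = 0.0867 and 0.0745). The call for FTM1 rested on replicate 1, since the fall was called without nlp2 T0 replicate 1 (adjusted p = 0.043) and without nlp2 T30 replicate 1 (adjusted p = 0.0139). Its rise (1.31 ± 0.33, adjusted p = 0.00763) was lost with planting date as a block (adjusted p = 0.105) and without nlp2 ctrl replicate 1 (adjusted p = 0.0558). AT3G32030, a terpenoid cyclase family member, shares 96.749% of its bases with AT3G31425 over 1815 bases, so its counts are uncertain. Its fall (-0.85 ± 0.25, adjusted p = 0.0252) was lost with planting date as a block (adjusted p = 0.0845) and without nlp2 T0 replicate 1, nlp2 T0 replicate 2 or nlp2 T30 replicate 1 (0.105, 0.123 and 0.111).

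Cell wall and glycosyltransferase genes (5) and redox genes (3) were all called in both nlp2 contrasts. GALS2, a galactan synthase, had 16.5, 20.9 and 17.9 CPM in nlp2 ctrl, 37.9, 41.3 and 39.2 in T0, and 18.1, 19.1 and 18.6 in T30. T0 was separate from the others, which overlapped, and its steps were 0.91 ± 0.09 and -1.01 ± 0.09 (edgeR adjusted p = 4.95e-07 and 1.77e-07). PGSIP3, an enzyme that adds glucuronic acid to xylan, had steps of 1.59 ± 0.20 and -1.09 ± 0.19. The redox genes had larger rises, with a median of 2.67. AT4G33040 and AT5G11930, both of the thioredoxin superfamily, rose by 2.67 ± 0.17 and 3.55 ± 0.25 (adjusted p = 1.53e-09 and 1.01e-08). AT5G11930 had 1.8, 2.11 and 1.55 CPM in nlp2 ctrl, 28.6, 20.1 and 23.6 in T0, and 10.7, 6.23 and 6.92 in T30, so its T30 libraries stayed above ctrl.

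Signalling and stress genes were 15, and all 15 were called in both nlp2 contrasts (medians 1.52 and -1.26). They include 3 genes annotated with DUF581, a zinc finger domain of proteins that bind the energy sensor kinase SnRK1. AT4G39795 had 1.8, 0.722 and 1.31 CPM in nlp2 ctrl, 25.9, 28.6 and 26.3 in T0, and 4.5, 6.18 and 4.81 in T30, with steps of 4.17 ± 0.21 and -2.29 ± 0.18 (edgeR adjusted p = 2.51e-10 and 3.5e-08). AT4G17670 rose by 2.46 ± 0.25 and AT1G22160 by 2.41 ± 0.23, and their T30 over T0 values were -1.59 ± 0.24 and -1.08 ± 0.22. All 3 stayed above nlp2 ctrl after nitrate. AT4G17670 neighbours another member, AT4G17680, at a distance of 7729 bases. AT5G15500, an ankyrin repeat protein gene, had 0.146, 0.444 and 0.245 CPM in nlp2 ctrl, 9.22, 12.9 and 11.3 in T0, and 4.38, 3.71 and 4.51 in T30, a rise of 5.13 ± 0.31 (adjusted p = 1.24e-09).

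RGF9, a peptide of the root meristem growth factor family, and RALFL27, a RALF-like peptide, rose by 0.77 ± 0.20 and 0.76 ± 0.25 in nlp2 (edgeR adjusted p = 0.00582 and 0.03). RALFL27 had 3.74, 2.33 and 2.2 CPM in nlp2 ctrl, 5.95, 4.43 and 5.72 in T0, and 1.95, 1.42 and 1.05 in T30, and T30 lay below ctrl. Its rise was lost without nlp2 T0 replicate 1 or 3 or nlp2 ctrl replicate 2 or 3 (adjusted p = 0.11, 0.0874, 0.134 and 0.136). REM4.1, a remorin of the plasma membrane, rose by 1.63 ± 0.13, and SRO4, a relative of the stress regulator RCD1, by 2.32 ± 0.35 and fell again by 2.02 (log2 fold change -2.02 ± 0.34, adjusted p = 0.000265). RLP26, a receptor-like protein, had steps of 0.93 ± 0.15 and -1.01 ± 0.15, and AT2G33051 overlaps it on the opposite strand over its 2671 bases, with 11.9 to 13.0 CPM in the nlp2 groups.

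The last 13 members have no role assigned here, and 11 were higher in nlp2 T0 than ctrl and 10 lower in nlp2 T30 than T0. AT5G59050 was the clearest, with 12.9, 10.5 and 12.3 CPM in nlp2 ctrl, 53.2, 55.0 and 54.8 in T0, and 21.2, 19.3 and 20 in T30 (steps 1.99 ± 0.12 and -1.35 ± 0.12, edgeR adjusted p = 1.21e-09 and 1.12e-07). AT2G47115 and AT4G06477 were not called in either contrast. AT2G47115 had 3.3, 2.78 and 1.02 CPM in nlp2 ctrl, 1.75, 3.9 and 1.36 in T0, and 5.54, 1.92 and 1.05 in T30, all overlapping. Its Col4 T0 libraries had 29.1, 7.41 and 6.14 CPM, of which replicate 1 alone was high. AT4G06477 had 12.1, 2.38 and 2.87 CPM in Col4 T0, again with replicate 1 high, and 1.15, 0.738 and 0.204 CPM in nlp2 T0. Neither met the rule without Col4 T0 replicate 1. Their T0 over ctrl values in nlp2 were -0.17 ± 0.89 (adjusted p = 0.912) and -1.32 ± 1.14 (adjusted p = 0.429), and with planting date as a block that of AT4G06477 was called, in the lower direction (adjusted p = 0.0167). AT2G14247 rose in nlp2 by 2.68 ± 0.34 but was not called for the fall (-0.69 ± 0.29, adjusted p = 0.112).

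How near the members came to the never-starved level was read from nlp2 T30 against nlp2 ctrl. By the protocol these groups also differ in age, and nitrate cannot be told apart from handling or elapsed time. In 43 of the 80 the difference missed the threshold, 27 (33.8%) were higher than ctrl and 10 (12.5%) lower (edgeR), against 19.6% of all genes higher and 19.0% lower. For the 77 members called for the rise, the share of the rise in CPM taken back ran from 47.3% to 149% with a median of 87.8%. The members highest above ctrl were AT5G36130 at 5.84 ± 0.43, CYP716A2 at 5.18 ± 0.33, AT5G15500 at 3.81 ± 0.34 and MYB90 at 3.48 ± 0.65. The lowest were AT3G45660 at -1.27 ± 0.35, AT4G26950 at -1.23 ± 0.21, AT5G67430 at -1.2 ± 0.36 and RALFL27 at -1.02 ± 0.29. AT4G26950, annotated as a senescence regulator with DUF584, had 3.06, 4.17 and 4.0 CPM in nlp2 ctrl, 11.1, 10.4 and 10.6 in T0, and 1.52, 1.92 and 1.7 in T30.

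By role, 5 of 11 regulators were above nlp2 ctrl after nitrate and 1 (FBH3) below, and of 15 signalling and stress genes 7 were above and 2 (RALFL27 and AT4G26950) below. Among conjugation and specialised metabolism genes 5 were above and 5 below. Of 13 transporters 2 were above and 1 below. Over all genes tested, 19.6% were above and 19.0% below, shares that the transporters did not exceed. Calls for T30 over ctrl were the least steady of the 3 contrasts: 25 members changed theirs under at least 1 alternative. That of FBH3 (edgeR adjusted p = 0.0272) was lost under 4. Without nlp2 ctrl replicate 1 the number below ctrl was 6, while without nlp2 ctrl replicate 2 the number above was 18.

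**Figure D4:**
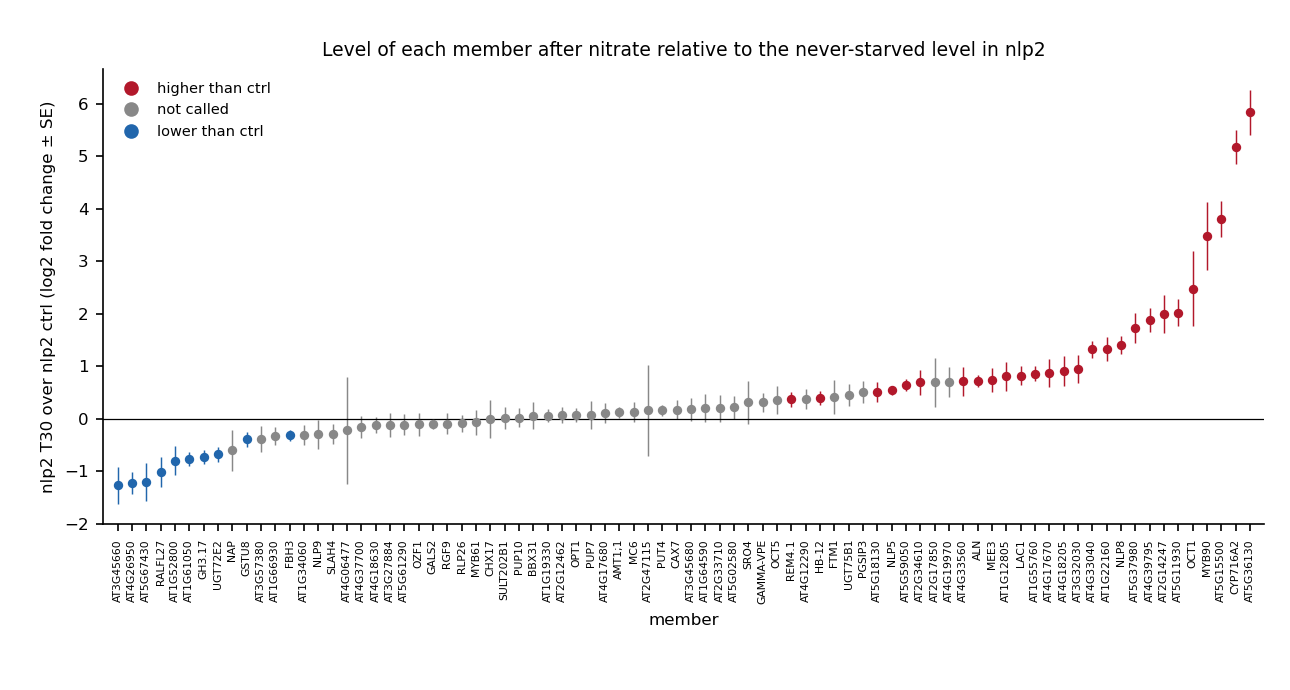
Members run along the horizontal axis in order of their log2 fold change in nlp2 T30 over nlp2 ctrl, which the vertical axis gives with its SE. The 27 red points were called higher, the 10 blue points lower and the 43 grey points missed the threshold. The right end is set by AT5G36130 at 5.84 and CYP716A2 at 5.18.

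At the median, fitted levels of the members differed little between nlp2 and Col4. Since Col4 values chose the set, the genotype differences are given without a test. The median nlp2 over Col4 log2 fold change of the members was -0.03 in ctrl, 0.02 in T0 and 0.06 in T30. A difference of 1 or more was found for 4 members in ctrl, 2 in T0 and 0 in T30. In ctrl these were AT2G34610 at 1.54, AT2G14247 at -1.23, AT2G47115 at -1.16 and CYP716A2 at 1.1. The value of CYP716A2 rests on 10 reads in the nlp2 ctrl libraries together against 4 in those of Col4 ctrl. In T0 they were AT4G06477 at -3.03 and AT2G47115 at -2.63. In both of these Col4 T0 replicate 1 was the highest library, and the other Col4 T0 libraries also lay above all nlp2 T0 libraries. AT2G34610, annotated as a cotton fiber protein, had 3.16, 4.22 and 5.88 CPM in nlp2 ctrl, against 1.15, 1.38 and 1.92 in Col4 ctrl. The fitted rise was larger in Col4 for 44 of the 80 members and the fitted fall larger in Col4 for 46.

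Promoter letters were counted on both strands in the members and in all genes. Of the 80 stretches of 300 bases, 9 (11.2%) held the G-box CACGTG, against 6.9% of 32834 promoters, and the core ACGT, which the G-box contains, was in 57.5% against 48.3%. The evening element was in 6 (7.5% against 5.3%), and the GATA motif in 7 (8.8% against 15%). Letters bound by the nitrate-induced repressors HRS1 and its relatives had shares no larger than in all genes, with GAATC in 34 (42.5% against 46.0%) and GAATATTC in 0 (1.0% of all). The 9 with the G-box were FBH3, MYB90, NAP, OCT5, RLP26, AT3G32030, AT3G45680, REM4.1 and CAX7.

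Other pathways tied to nitrogen supply moved in part with the members in nlp2. All 10 tested NF-YA genes, transcription factors induced by nutrient starvation, were higher in T0 than ctrl, and 6 were lower in T30 than T0, with a median of -0.34 for the second step. Of 13 flavonoid and anthocyanin genes, 9 were higher in T0 and 5 lower in T30, and these include MYB90, MYB75 and UF3GT. The 9 genes listed as repressors of the nitrate response, such as HRS1 and LBD38, ran the other way, with 9 lower in T0 and 9 higher in T30. Among 14 nitrate transport genes 8 were higher and 3 lower in T0, and 10 were higher and 1 lower in T30. Of 12 senescence genes, 5 were higher and 2 lower in T0 and 3 were lower and 1 higher in T30, with NAP the only member. NYE1, which starts chlorophyll breakdown and lay just outside the rise limit, had steps of 0.84 ± 0.16 and -1.02 ± 0.17 (edgeR adjusted p = 0.000644 and 0.000188).

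The counts of the lists above, and of the further lists without a member below, can be read against all genes tested. Of these, 14.5% were higher and 15.7% lower in nlp2 T0 than ctrl, and 9.36% higher and 9.23% lower in nlp2 T30 than T0. List counts cover only genes that passed the filter on low counts. Of 20 listed energy starvation genes 14 were tested, and in each group 5 of the 20 had 0 reads. Of the 14, 9 were lower and 1 higher in nlp2 T0 than ctrl, and 5 were higher and 1 lower in T30 than T0. Genes of branched-chain amino acid and proline catabolism were 4 higher and 4 lower of 18 in T0, and 2 higher and 1 lower in T30. Glutamate and glutamine metabolism had 7 higher and 6 lower of 13 in T0, with GLN1.4 at 4.06 ± 0.19 and ASN2 at -1.2 ± 0.11, and 4 higher and 3 lower in T30. In the phosphate starvation list, 3 of 10 were higher and 3 lower in T0, and 4 were lower in T30. Abscisic acid response genes were 7 higher and 1 lower of 12 in T0, and 2 higher in T30. Clock genes were 2 higher and 3 lower of 13 in T0, and 3 higher and 3 lower in T30, among them CCA1 (0.67 ± 0.15 and -0.86 ± 0.15) and LUX (-0.42 ± 0.14 and 1.31 ± 0.14).

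**Figure D5:**
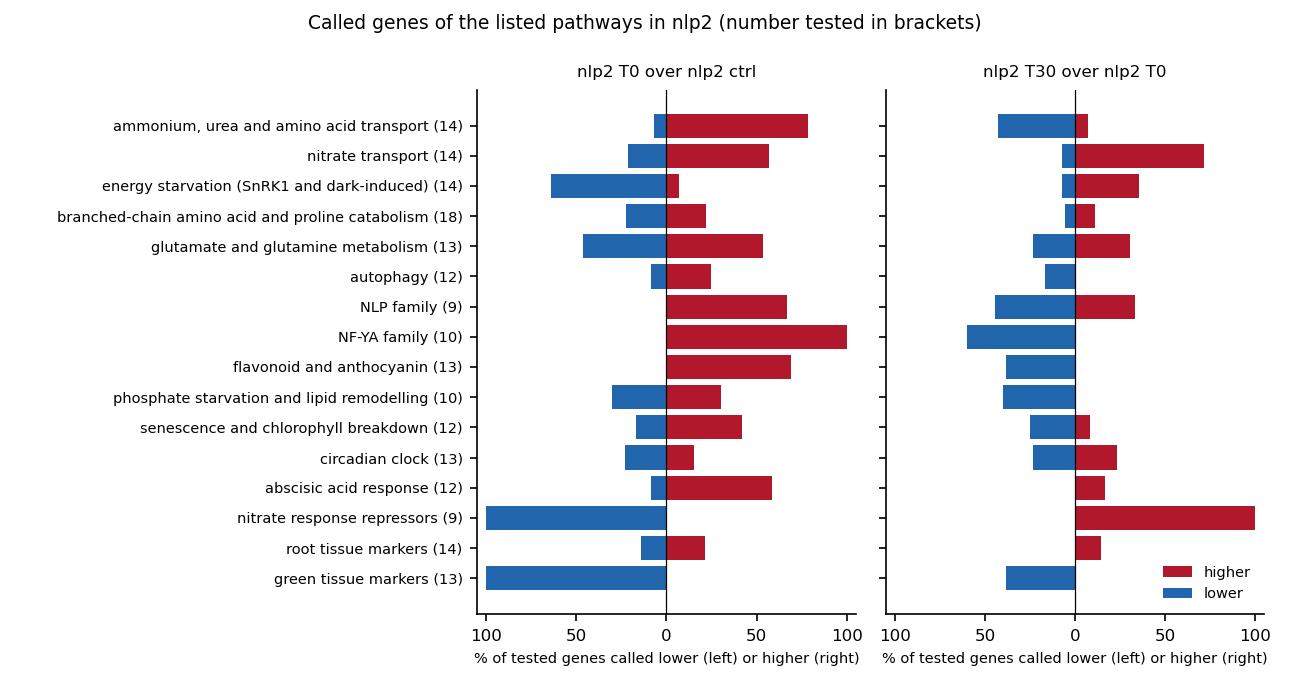
Bars give, for each list, the percentage of tested genes called lower (blue, left) or higher (red, right) in nlp2 T0 over nlp2 ctrl (left panel) and nlp2 T30 over nlp2 T0 (right panel). The NF-YA family is at 100% higher in the first panel and has 6 of 10 lower in the second, and the nitrate response repressors are at 100% lower and then 100% higher.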

How the data were processed

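RNA was sequenced from seedlings in 6 groups of 3 libraries, named biological replicates in the series design. The authors deposited whole-number read counts per gene model, made with sam2pkm after removal of reads with equally good hits, per the file headers. The submitters' processing notes name Bowtie2 and TAIR10, and libraries were stranded and single-end, per the labels' protocols. Levels are CPM on each file's total (14684639 to 25545031 counts).

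The members, gene lists and rules were chosen with earlier results of these data known. Counts were fitted in R 4.3.3 with edgeR 4.0.16 (filterByExpr with a minimum of 10 per library and 15 in total, TMM, robust quasi-likelihood, 6 group means, 18 libraries). P-values were adjusted by Benjamini-Hochberg over 21347 genes, and SEs of log2 fold changes follow the sign ±. The fit was tested on simulated data. Alternatives were DESeq2 1.42.0, RLE size factors, no filter, nlp2 libraries alone, planting date as a block, leaving out each library, and other limits of the rule. The labels give nlp2 libraries of 1 number the same planting date, so the numbers pair them. Deviations of same-numbered nlp2 T0 and ctrl libraries correlated at 0.32, 0.313 and 0.187 across genes. Pairs with T30 were weaker, at 0.14, 0.251 and -0.058 with T0 and 0.111, 0.093 and 0.075 with ctrl. For replicate 3 of T0 and replicate 2 of T30 in these pairs, a library of another number correlated higher (0.087 and 0.099).

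Genes named are the symbol-bearing members with the largest steps or most reads, in all and by role, members of lists, the called genes of each list with the smallest p, members without a call, genes next to the limits, and their relatives. Other members named by a locus code, and BBX31, LAC1 and OCT5, were chosen after their values were seen. Of 220 listed symbols, 206 matched the RefSeq annotation. Sequences and positions come from RefSeq TAIR10.1, and copies were sought with blastn 2.17.0+ at 95% identity over 100 bases.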

Additional observations from a re-analysis of the deposited data

Results flagged for a closer look

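AT4G06477, annotated as a pseudogene, had differences of opposite sign in the genotypes, and neither step was called in nlp2 (edgeR T0 over ctrl -1.32 ± 1.14, adjusted p = 0.429, with 38 reads in the nlp2 T0 libraries together). For T0 over ctrl its log2(CPM + 0.5) difference was -1.24, -0.11 and -0.49 for the 3 replicate numbers of nlp2 (mean -0.61), against 1.97, 0.51 and 0.85 for those of Col4 (mean 1.11). For T30 over T0 it was 1.16, 0.28 and 0.17 in nlp2 (mean 0.54), against -1.6, -1.28 and -1.4 in Col4 (mean -1.43). Every nlp2 pair lay on the other side of 0 from every Col4 pair. Col4 values chose the gene and so fixed the Col4 direction, it did not meet the rule without Col4 T0 replicate 1, and the difference between the genotypes was not tested.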

How the results depend on the processing

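The choice of members depended on its limits. With TMM-scaled library sizes the rule kept 48 genes, all among the 80, of which 46 were higher in nlp2 T0 than ctrl and 44 lower in nlp2 T30 than T0 (these 2 counts were chosen after seeing the data). Mean TMM factors were 1.09 in nlp2 T0 against 0.948 in nlp2 ctrl, and 1.06 in Col4 T0 against 0.919 in Col4 ctrl. Rise and fall limits set by a fold of 1.5 gave 441 genes and by a fold of 3 gave 12. Offsets of 0.1 and 2 gave 88 and 55. A level limit read without the offset, also chosen after seeing the data, gave 76. Without 1 Col4 library the rule kept 79 to 94 genes. Of the 80, 53 met it in all 9 such cases, of which 53 were higher in nlp2 T0 than ctrl and 51 lower in nlp2 T30 than T0.

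In nlp2, members higher in T0 than ctrl numbered 75 to 77 without 1 library, members lower in T30 than T0 70 to 74, both 69 to 72, and members different between T30 and ctrl 29 to 37, with 18 to 27 higher and 6 to 12 lower. With planting date as a replicate block, fitted to the nlp2 libraries alone, these were 76, 71, 70 and 35. The block changed calls of FTM1, AT4G06477, AT3G32030 and PUP7 as given above, and ended the fall of AT4G33560 (adjusted p = 0.0743). For T30 over ctrl this fit lost the calls of AT1G12805 (0.0692), AT2G34610 (0.0567), GSTU8 (0.0507), AT4G18205 (0.0595) and AT4G33560 (0.0732). It added AT4G19970 (0.0306), PGSIP3 (0.0308) and GAMMA-VPE (0.0474). The GSTU8 call was lost in nlp2 libraries alone without a block too (edgeR adjusted p = 0.0618). Members losing the rise under at least 1 alternative were FTM1, AT1G66930, RALFL27 and AT3G57380, and members losing the fall were AT1G12805, OCT5, AT2G17850, AT3G32030, PUP7, AT4G19970 and AT4G33560. No called value changed direction under the alternatives run. Depth limits the ctrl values of CYP716A2, AT5G36130 and OCT1, which rest on 10, 3 and 8 reads in the nlp2 ctrl libraries together.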
